A study of Arabidopsis thaliana with 36 samples.

Results

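Coumarin synthesis and secretion was followed through 9 genes chosen by name, of the 28775 genes in the deposited count table: F6'H1, F6'H2, S8H, CYP82C4, COSY, ABCG37, MYB72, MYB10 and BGLU42. No measured value entered the rule that chose them, but they were chosen with earlier results of these data known. All 9 had enough reads to be tested among 21692 genes. Transcripts were measured by RNA sequencing in whole roots and whole leaves of Arabidopsis thaliana of 2 genotypes. One was opt3-2, a viable insertion allele of OPT3, which encodes an oligopeptide transporter known for iron movement in the phloem, and the other was the wild type Columbia-0. The 4 groups were opt3-2 roots, Columbia-0 roots, opt3-2 leaves and Columbia-0 leaves, with 3 biological replicates each and 3 to 4 plants in an RNA sample. Every plant had 11 days on plates and then 22 days in aerated liquid medium, with a day of 16 h light and 8 h dark. The labels name a replete medium for every sample, while a treatment text that all samples share speaks of 20 µM CdCl2 for 72 h, and which of these holds is not settled.

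Arabidopsis, like other plants that are not grasses, takes up iron by reducing it at the root surface, and coumarins are small phenolics that its roots make from feruloyl-CoA and secrete. Catecholic coumarins such as fraxetin and sideretin chelate and reduce Fe(III), which keeps iron within reach when it is poorly soluble. In the pathway, F6'H1 and its relative F6'H2 hydroxylate feruloyl-CoA, COSY closes the lactone ring to give scopoletin, S8H turns scopoletin into fraxetin, and CYP82C4 turns fraxetin into sideretin. MYB72 and MYB10 are transcription factors of the iron deficiency response, BGLU42 is a beta-glucosidase that frees coumarins from their sugar, and the membrane transporter ABCG37 (PDR9) exports them.

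Because the members that rose did so together, their promoters were read from the RefSeq genome assembly TAIR10.1 and compared for short motifs. The 3 shown belong to the enzymes with the highest transcript levels per length in opt3-2 roots and cover the 250 bases before each annotated gene start, 5′ to 3′ on the coding strand. Capitals mark an E-box (CANNTG, the core letters bound by bHLH factors) or an AC element (ACCTACC or ACCAACC on either strand, letters bound by MYB factors of phenylpropanoid genes). F6'H1 is shown from chr3:4449009-4449258, S8H from chr3:4104213-4104462 and CYP82C4 from chr4:15451738-15451987, all on the plus strand.
F6'H1: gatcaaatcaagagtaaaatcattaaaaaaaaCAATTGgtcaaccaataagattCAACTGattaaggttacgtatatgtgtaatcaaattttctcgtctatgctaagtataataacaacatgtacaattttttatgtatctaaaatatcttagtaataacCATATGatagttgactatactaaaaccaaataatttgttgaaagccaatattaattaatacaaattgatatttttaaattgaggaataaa
S8H: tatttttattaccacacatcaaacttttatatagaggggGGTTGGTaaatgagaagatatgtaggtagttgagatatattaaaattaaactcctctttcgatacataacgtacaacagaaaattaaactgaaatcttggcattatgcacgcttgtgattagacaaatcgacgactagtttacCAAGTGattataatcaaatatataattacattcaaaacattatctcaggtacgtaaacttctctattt
CYP82C4: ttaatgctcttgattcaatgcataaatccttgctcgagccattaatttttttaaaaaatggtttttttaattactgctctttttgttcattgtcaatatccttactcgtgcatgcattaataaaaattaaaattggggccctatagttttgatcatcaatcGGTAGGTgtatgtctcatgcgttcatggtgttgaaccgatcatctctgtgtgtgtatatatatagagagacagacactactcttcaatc

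The F6'H1 promoter held 3 E-boxes, 218, 196 and 90 bases before the gene start. That of S8H held 1 E-box at 68 bases and 1 AC element at 211 bases, which lay on the other strand. That of CYP82C4 held 1 AC element at 89 bases, also on the other strand, and no E-box. Among the 9 members, 5 had an E-box in this window, against 55.3% of 27438 protein-coding promoters of the same length. None of the 9 had a G-box (CACGTG, itself an E-box), which 6.49% of all promoters held. ACCTACC stood in 1 member and 1.16% of promoters, ACCAACC in 1 member and 2.69%, and a further AC form, ACCTAAC, in 0 members and 2.46%. Both strands were searched, and a match or its lack describes only the letters in this window. No motif searched was held by all 9 members.

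Libraries held 27451463 to 31065807 counted reads in opt3-2 roots, 25828387 to 30909804 in Columbia-0 roots, 36705595 to 37685493 in opt3-2 leaves and 23981444 to 30816450 in Columbia-0 leaves. Organ labels fitted the markers, since all 9 leaf markers were lower in roots and all 9 root hair and endodermis markers were higher there, in each genotype. Of the 21692 genes tested, 16798 were called between the organs in Columbia-0, 8938 of them higher in roots. In opt3-2 17091 were called, 8754 of them higher in roots. OPT3 itself averaged 19.4 ± 1.40 CPM in opt3-2 leaves and 102 ± 23.8 CPM in Columbia-0 leaves (SD, n = 3), a log2 fold change of -2.40 ± 0.16 (SE, adjusted p = 2.66e-06 in edgeR's quasi-likelihood test). In roots it averaged 5.64 ± 0.774 CPM in opt3-2 and 7.51 ± 0.798 CPM in Columbia-0, and this difference of -0.41 ± 0.17 did not pass (adjusted p = 0.125). The labels call the replicates biological without stating that they were separate cultures, so the spread behind each p-value may be technical.

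In roots, coumarin genes were far more abundant in opt3-2 than in Columbia-0. Of the 9 members, 8 rose, 0 fell and F6'H2 did not pass the test, at an adjusted p under 0.05 in edgeR's quasi-likelihood test (n = 3 per group). Among all 21692 genes tested, 8.28% were called higher in opt3-2 roots and 7.28% lower. The median log2 fold change of the members was 4.01, and that of all genes tested was -0.0006. Replicates of the genotypes did not overlap for these 8, all higher in opt3-2, nor for F6'H2, which was lower, against 15% and 16.5% of all genes in those directions. Reads of the 9 genes made up 0.562%, 0.770% and 0.880% of all counted reads in the opt3-2 root replicates, and 0.0447%, 0.0420% and 0.0386% in those of Columbia-0. Below, CPM is reads per 1000000 counted reads with TMM scaling, given for replicates 1, 2 and 3 in turn, and each log2 fold change (± SE) has opt3-2 on top. In whole organs like these, more cells of a type and more RNA per cell cannot be told apart.

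**Figure D1:**
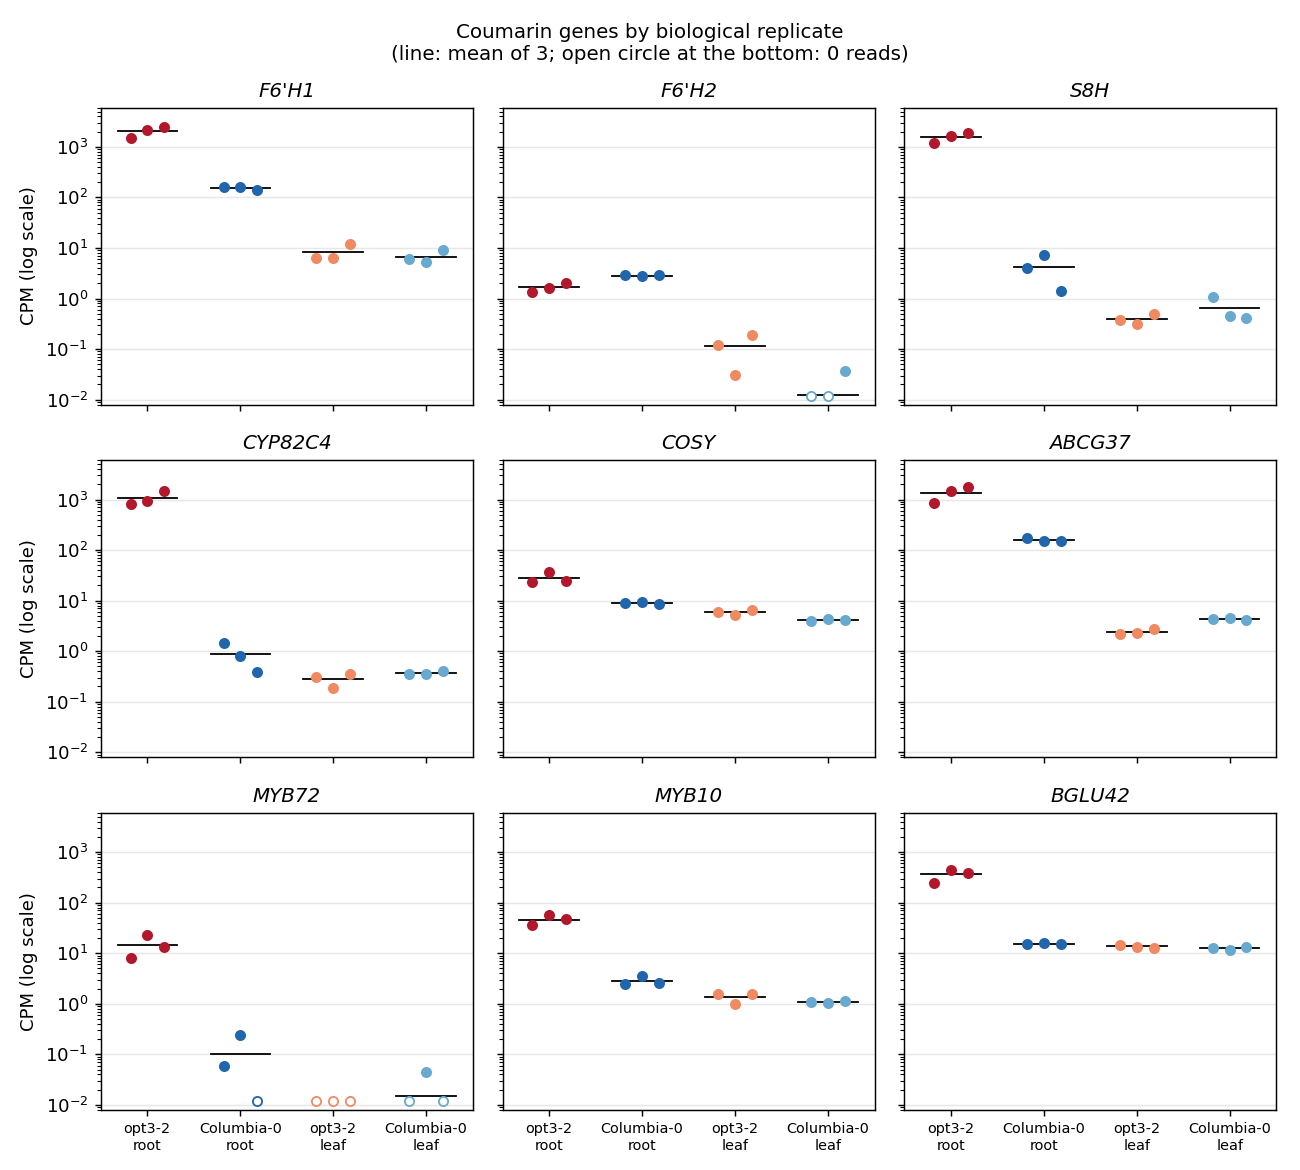
Transcript level (CPM, log scale) of each of the 9 coumarin genes in every biological replicate of opt3-2 roots, Columbia-0 roots, opt3-2 leaves and Columbia-0 leaves; lines are means of 3 replicates and open circles mark 0 reads. In 8 panels the 3 opt3-2 root points lie above all other points, and in the F6'H2 panel they lie below those of Columbia-0 roots.

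F6'H1 (AT3G13610, chromosome 3 from 4449259 to 4450811, plus strand, 2 exons) encodes the feruloyl-CoA hydroxylase that opens the pathway. Its transcript stood at 1531, 2196 and 2426 CPM in opt3-2 roots and at 162, 157 and 141 CPM in Columbia-0 roots. All 3 opt3-2 values lay above all 3 of Columbia-0, and replicate 1 was the lowest of the mutant. The log2 fold change was 3.74 ± 0.27 (edgeR adjusted p = 2.98e-06). PUT4, on the opposite strand, overlaps 67 bases of F6'H1, and the sources used here do not say whether counting used strand. It had 829 reads in opt3-2 roots and 848 in Columbia-0 roots, against 203442 and 15857 reads of F6'H1. In leaves PUT4 had 1643 reads in opt3-2 and 1053 in Columbia-0, against 784 and 475 of F6'H1. Reads within the 67 shared bases were not counted apart, so leaf values of F6'H1 are uncertain to an unknown extent. Its relative F6'H2 (AT1G55290, chromosome 1 from 20626029 to 20627513, minus strand) was scarce. It stood at 1.35, 1.60 and 2.07 CPM in opt3-2 roots (50, 50 and 67 reads) and at 2.89, 2.81 and 2.86 CPM in Columbia-0 roots (100, 105 and 89 reads). Every mutant value lay below every wild-type value, unlike F6'H1, but the log2 fold change of -0.77 ± 0.25 missed the threshold in edgeR (adjusted p = 0.0596). Same-numbered root replicates deviated together for replicates 1 and 3, but not clearly for 2. A fit with a replicate block called F6'H2 lower (-0.78, edgeR adjusted p = 0.0290). Over 14 alternatives the adjusted p ran from 0.0247 to 0.270, and 6 of them called it. The transcripts of these relatives are 76.3% identical over 1092 aligned bases.

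COSY (AT1G28680, chromosome 1 from 10078189 to 10079909), the coumarin synthase that closes the lactone ring, had the smallest change of the 8 genes that rose. It stood at 22.9, 36.8 and 24.7 CPM in opt3-2 roots and at 9.11, 9.18 and 8.55 CPM in Columbia-0 roots. The groups did not overlap, replicate 2 stood above the other mutant replicates, and the log2 fold change was 1.65 ± 0.16 (edgeR adjusted p = 3.10e-05). A noncoding gene, AT1G28685, overlaps 1455 bases of COSY on the opposite strand. It held 19 reads over the 3 opt3-2 root replicates and 12 over those of Columbia-0, against 2789 and 924 reads of COSY. Whether reads within the shared bases were counted or left out is not stated, so the level of COSY is uncertain.

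S8H (AT3G12900, chromosome 3 from 4104463 to 4106341), the Fe(II)-dependent dioxygenase that makes fraxetin, acts at the catecholic end of the pathway. It stood at 1212, 1622 and 1910 CPM in opt3-2 roots and at 3.96, 7.41 and 1.42 CPM in Columbia-0 roots. Columbia-0 replicates spread widely, with replicate 2 well above replicate 3, yet all lay far below the mutant. The log2 fold change was 8.52 ± 0.51, rank 4 of the 21692 genes in the upward direction, and it ran from 8.11 to 9.51 over 14 alternatives. CYP82C4 (AT4G31940, chromosome 4 from 15451988 to 15454224), the cytochrome P450 that makes sideretin, stood at 800, 941 and 1496 CPM in opt3-2 roots and at 1.45, 0.803 and 0.386 CPM in Columbia-0 roots. In Columbia-0 it was thus close to the limit of counting, with 92 reads over 3 replicates, against 107286 in opt3-2. Its log2 fold change of 10.24 ± 0.39 was rank 2 of all genes tested, and ran from 9.91 to 11.03 over the alternatives. CYP82C4 shares 91.5% of 1757 aligned bases with CYP82C2 and 90.5% of 1659 with CYP82C3, and the sources used here do not say how reads matching several of them were counted. In opt3-2 roots these relatives held 105 and 197 reads.

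ABCG37 (AT3G53480, chromosome 3 from 19825267 to 19831880, 23 exons), the exporter of the set, stood at 870 CPM in replicate 1, 1464 CPM in replicate 2 and 1780 CPM in replicate 3 of opt3-2 roots. In Columbia-0 roots it stood at 172, 150 and 149 CPM. Every mutant value was above every wild-type value, and the log2 fold change was 3.13 ± 0.21 (edgeR adjusted p = 1.83e-06). BGLU42 (AT5G36890, chromosome 5 from 14541289 to 14546230), which removes the sugar from stored coumarin glucosides, stood at 249, 450 and 392 CPM in opt3-2 roots and at 15.2, 15.9 and 15.4 CPM in Columbia-0 roots. Its wild-type replicates were nearly equal and its mutant replicates spread more, without overlap. The log2 fold change was 4.55 ± 0.19 (edgeR adjusted p = 4.34e-08), rank 44 of the genes tested.

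Both transcription factor genes rose as well, at lower levels. MYB72 (AT1G56160, chromosome 1 from 21022384 to 21023587) had 299, 721 and 424 reads in opt3-2 roots, or 8.10, 23.2 and 13.1 CPM, and 2, 9 and 0 reads in Columbia-0 roots. Replicate 2 was the highest in each genotype and the genotypes did not overlap. The log2 fold change was 7.07 ± 0.64 (edgeR adjusted p = 7.59e-05, rank 14), and since it rests on 11 wild-type reads it ran from 6.56 to 8.87 over the alternatives. It was 8.74 without Columbia-0 replicate 2. The antisense noncoding gene AT1G56165 covers 829 bases of MYB72. It had 54 reads over the opt3-2 root replicates and 55 over those of Columbia-0 (log2 fold change -0.01 ± 0.35, edgeR adjusted p = 0.991). Whether reads within the shared bases were counted or left out is not stated, so the level of MYB72 is uncertain. MYB10 (AT3G12820, chromosome 3 from 4073855 to 4075643) stood at 36.3, 55.8 and 46.8 CPM in opt3-2 roots and at 2.49, 3.48 and 2.61 CPM in Columbia-0 roots. The genotypes did not overlap, and the log2 fold change was 4.01 ± 0.19 (edgeR adjusted p = 1.19e-07). PIE1, which encodes a chromatin remodelling ATPase, overlaps 340 bases of MYB10 on the opposite strand and held more reads than MYB10 in 3 of the 4 groups. It had 3875 reads over the opt3-2 root replicates and 5068 over those of Columbia-0 (-0.34 ± 0.09, adjusted p = 0.0243), against 4595 and 297 reads of MYB10. In opt3-2 leaves PIE1 had 5701 reads and MYB10 133, and in Columbia-0 leaves PIE1 had 3636 and MYB10 75. Whether reads within the 340 shared bases were counted for MYB10, for PIE1 or for neither is not stated. The low MYB10 values of Columbia-0 roots and of leaves are therefore uncertain.

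Within opt3-2 roots, replicate 1 was the lowest of the 3 for all 8 genes that rose. Replicate 3 was the highest for 4 of them, F6'H1, S8H, CYP82C4 and ABCG37, and replicate 2 for the other 4, COSY, MYB72, MYB10 and BGLU42. Replicate 1 was also the lowest for all 5 root hair markers and all 4 endodermis markers, whose summed levels were 96.1 and 101 CPM there, 127 and 137 CPM in replicate 2, and 160 and 152 CPM in replicate 3. Leaf markers summed to 426, 263 and 215 CPM in these libraries. No share of all genes is given for this order of replicates, so it cannot be read as a trait of the coumarin genes. Without opt3-2 root replicate 1 the same 8 members were still called higher.

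**Figure D2:**
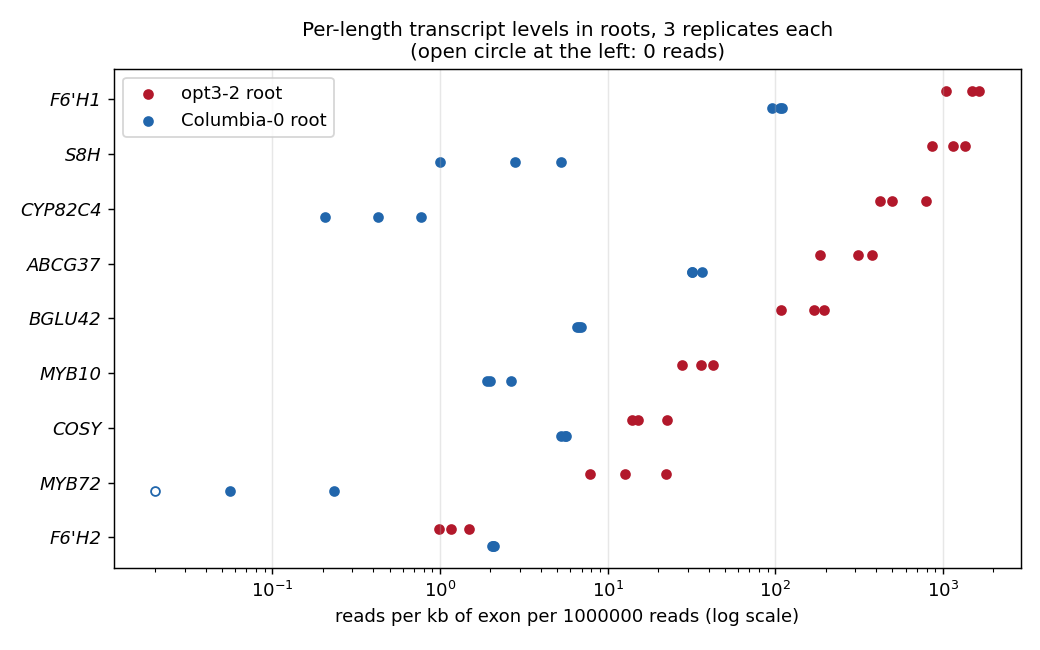
Transcript levels per length in roots, in reads per kb of exon per 1000000 reads (log scale), for the 3 replicates of opt3-2 roots and of Columbia-0 roots, with genes ordered by their mean in opt3-2; the open circle marks 0 reads. S8H and CYP82C4 hold ranks 2 and 3 in opt3-2 roots and stand at 5.24 or below in Columbia-0 roots.

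The order of the levels differed between the genotypes. Per length, in reads per kb of exon per 1000000 reads (mean ± SD, n = 3), opt3-2 roots had F6'H1 first at 1395 ± 316, then S8H at 1117 ± 248, CYP82C4 at 572 ± 195, ABCG37 at 293 ± 98.5 and BGLU42 at 158 ± 45.1. MYB10 followed at 35.5 ± 7.46, COSY at 17.2 ± 4.65, MYB72 at 14.3 ± 7.42 and F6'H2 at 1.21 ± 0.263. Replicate ranges overlapped between F6'H1 and S8H, between ABCG37 and BGLU42, and between COSY and MYB72, and the other neighbours were apart. In Columbia-0 roots F6'H1 was also first at 104 ± 7.74, but ABCG37 came next at 33.5 ± 2.78, then BGLU42 at 6.75 ± 0.157 and COSY at 5.49 ± 0.211. S8H at 3.01 ± 2.13, MYB10 at 2.19 ± 0.415 and F6'H2 at 2.07 ± 0.0304 came next, and CYP82C4 at 0.466 ± 0.284 and MYB72 at 0.0963 ± 0.122 came last. Ranges overlapped between S8H and MYB10, between MYB10 and F6'H2, and between CYP82C4 and MYB72. Put as ratios per length, S8H stood at 0.822, 0.767 and 0.817 of F6'H1 in the opt3-2 root replicates and at 0.0254, 0.0489 and 0.0105 of it in those of Columbia-0. CYP82C4 stood at 0.496, 0.436 and 0.588 of S8H in opt3-2 roots and at 0.274, 0.0814 and 0.205 in Columbia-0 roots. ABCG37 stood lower against F6'H1 in the mutant, at 0.178, 0.209 and 0.230 in opt3-2 roots and 0.332, 0.299 and 0.332 in Columbia-0 roots. Exon lengths are those of RefSeq and may differ from the annotation used for counting. Genes on the opposite strand overlap 1455 bases of COSY and 829 of MYB72. Whether reads there were counted or left out is not stated, so the per-length levels and ranks of COSY and MYB72 are uncertain and may be too low.

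In leaves, the same genes were scarce in both genotypes, and few differences were called. Of the 9 members, 0 rose and 1, ABCG37, fell in opt3-2 leaves; 15.4% of all genes tested were called higher there and 12.6% lower. No member was called higher in both organs, as 2.63% of genes were. The median log2 fold change was 0.19 over the 8 members other than MYB72 and 0 over all genes tested. MYB72 had 0 reads in opt3-2 leaves, which allows up to 3 reads over the group, and 1 read in Columbia-0 leaves, so no fold is given.

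ABCG37 stood at 2.21, 2.26 and 2.77 CPM in opt3-2 leaves and at 4.33, 4.54 and 4.09 CPM in Columbia-0 leaves. The mutant values all lay below those of the wild type, opposite to roots, and the log2 fold change was -0.84 ± 0.25 (edgeR adjusted p = 0.0285). The call was lost in 8 of 14 alternatives, 4 of which left out 1 library, opt3-2 leaf replicate 1 or 2 or Columbia-0 leaf replicate 1 or 2 (adjusted p from 0.0591 to 0.0692). Across all genes tested, 1.55% were called in opposite directions in the organs. COSY stood at 5.87, 5.30 and 6.51 CPM in opt3-2 leaves and at 3.98, 4.41 and 4.09 CPM in Columbia-0 leaves, without overlap, and its log2 fold change of 0.50 ± 0.17 missed the threshold (edgeR adjusted p = 0.0511). Among all genes, 26% had replicates that did not overlap and were higher in opt3-2 leaves, and 23.9% lower; of the members, COSY was higher in this way and ABCG37 and CYP82C4 lower.

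F6'H1 stood at 6.42, 6.31 and 11.8 CPM in opt3-2 leaves and at 5.94, 5.30 and 8.93 CPM in Columbia-0 leaves. The genotypes overlapped (log2 fold change 0.27 ± 0.28, edgeR adjusted p = 0.511), and the value was -0.12 without opt3-2 replicate 3. F6'H2 had 11 reads over the opt3-2 leaf replicates and 1 read over those of Columbia-0, a ratio of 7.89 with an exact 95% counting interval from 1.15 to 339, and it was not called (edgeR adjusted p = 0.0576). S8H, with 38 reads in opt3-2 leaves and 42 in Columbia-0 leaves, and CYP82C4, with 27 reads in opt3-2 leaves and 26 in Columbia-0 leaves, were near the limit of counting and did not pass. MYB10 (0.35 ± 0.26) and BGLU42 (0.12 ± 0.17) did not pass either, and BGLU42 ranged from 12.9 to 14.6 CPM in opt3-2 leaves and from 11.8 to 13.2 CPM in Columbia-0 leaves.

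**Figure D3:**
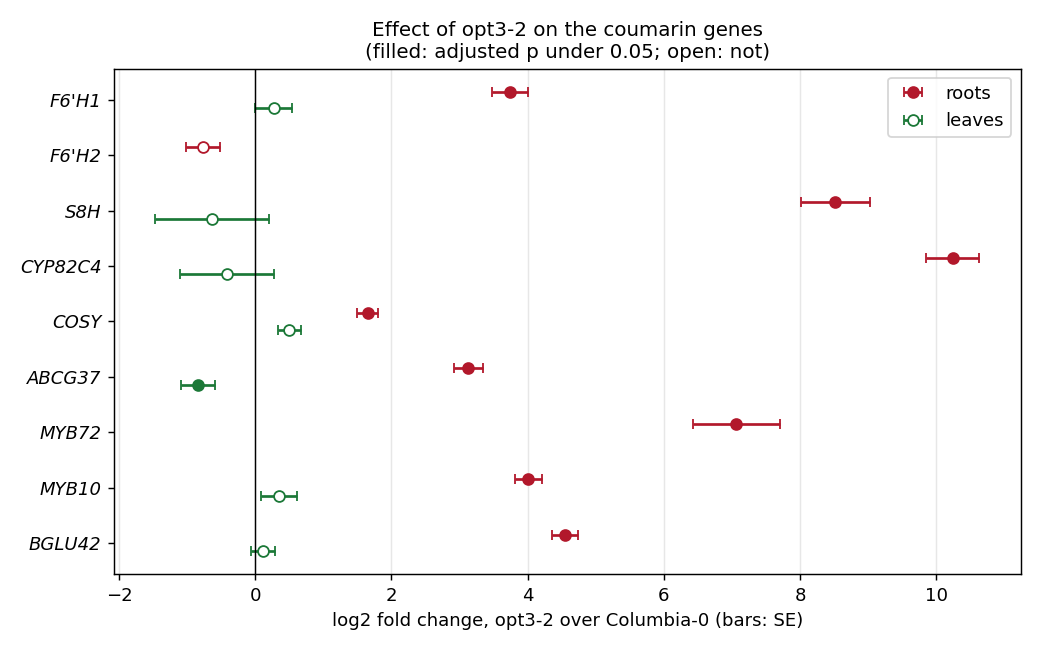
Log2 fold change of opt3-2 over Columbia-0 (SE bars) for each coumarin gene in roots and in leaves; filled points passed an adjusted p under 0.05 in edgeR's quasi-likelihood test, and leaf values of MYB72 and F6'H2, with 0 or 1 read in a leaf group, are left out. Root values run from -0.77 to 10.24, and the 7 leaf values from -0.84 to 0.50.

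The effect of opt3-2 in roots minus its effect in leaves was tested directly. It was called positive for 7 members and negative for 1, F6'H2; of all genes tested, 7.69% were called positive and 8.45% negative. CYP82C4 had the largest difference of all genes tested, 10.66 ± 1.02 (edgeR adjusted p = 5.35e-05), and S8H had 9.15 ± 1.12 (rank 4). BGLU42 (4.43 ± 0.25), ABCG37 (3.96 ± 0.32), MYB10 (3.67 ± 0.33), F6'H1 (3.47 ± 0.37) and COSY (1.15 ± 0.23) followed. For F6'H2 the difference of -3.45 ± 0.97 (edgeR adjusted p = 0.0331) depends on the 1 read in Columbia-0 leaves, and 10 of 19 alternatives did not call it (adjusted p up to 0.149). For MYB72, with at most 1 read per leaf group, no difference is given.

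Organs were also compared within each genotype, as root over leaf. In opt3-2 all 9 members were higher in roots, against 40.4% of genes tested, and their replicates did not overlap, against 41% of genes. S8H (11.95 ± 0.62) and CYP82C4 (11.89 ± 0.44) had the largest log2 differences of the members, then ABCG37 (9.15 ± 0.29), F6'H1 (7.97 ± 0.33), MYB10 (5.06 ± 0.21), BGLU42 (4.74 ± 0.19), F6'H2 (3.82 ± 0.38) and COSY (2.25 ± 0.16). MYB72 was at least 474-fold higher in opt3-2 roots than in opt3-2 leaves, taking 3 reads over the leaf group as the floor. In Columbia-0, 6 of 9 were higher in roots, against 41.2% of genes, and 0 were lower. Of the 21692 genes tested, 16798 were called in either direction there, 8938 of them higher in roots. Replicates of 7 members did not overlap, against 43.4% of genes. The 6 called higher were ABCG37 (5.18 ± 0.25), F6'H1 (4.50 ± 0.29), S8H (2.80 ± 0.59), MYB10 (1.40 ± 0.24), COSY (1.11 ± 0.17) and F6'H2. F6'H2 had 294 reads in Columbia-0 roots and 1 in Columbia-0 leaves, a ratio of 197 with a counting interval from 35.1 to 7801. CYP82C4 (1.23 ± 0.55, edgeR adjusted p = 0.0592) and BGLU42 (0.31 ± 0.17, adjusted p = 0.124) did not pass in Columbia-0. Of 13 alternatives, 4 called CYP82C4 higher in Columbia-0 roots: upper-quartile factors (adjusted p = 0.0255), the replicate block (0.020), DESeq2 (0.0347) and the fit without Columbia-0 root replicate 3 (0.0141). BGLU42 was called with upper-quartile factors (0.49, adjusted p = 0.0154) and with the lowest-numbered run alone (0.47, adjusted p = 0.0405). MYB72 had 11 reads in Columbia-0 roots and 1 in Columbia-0 leaves.

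The supply of precursors was examined through lists of neighbouring pathway genes. Of the 9 general phenylpropanoid genes, 6 rose in opt3-2 roots and 0 fell, with a median log2 fold change of 1.52. Among all genes tested, 8.28% were called higher in opt3-2 roots and 7.28% lower. PAL2 (2.62 ± 0.16) and PAL1 (2.30 ± 0.15) encode phenylalanine ammonia-lyases at the entry of the pathway, and 4CL2 (2.52 ± 0.15) and 4CL1 (2.09 ± 0.15) encode the ligases that make CoA esters. PAL2 averaged 1300 ± 307 CPM in opt3-2 roots and 211 ± 7.55 CPM in Columbia-0 roots (edgeR adjusted p = 6.23e-07), without overlap. C4H and PAL4 also rose, while PAL3, 4CL3 and 4CL5 did not pass. Of the 6 genes that lead from p-coumaroyl-CoA to feruloyl-CoA, 4 rose and 0 fell (median 0.76). CYP98A3 (1.39 ± 0.13), the ring hydroxylase, and CCoAOMT1 (1.28 ± 0.12), the methyltransferase, rose, as did CSE (1.05 ± 0.11) and HCT (0.47 ± 0.08), and CCoAOMT7 and COMT1 did not pass. In opt3-2 leaves 1 of the phenylpropanoid genes rose and 4 fell, and 2 of the feruloyl-CoA genes rose and 1 fell. The shares of all genes tested were 15.4% higher and 12.6% lower there. Replicate 1 was the lowest of the opt3-2 root replicates for all 9 phenylpropanoid genes too, again without a share of all genes to set beside it.

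**Figure D4:**
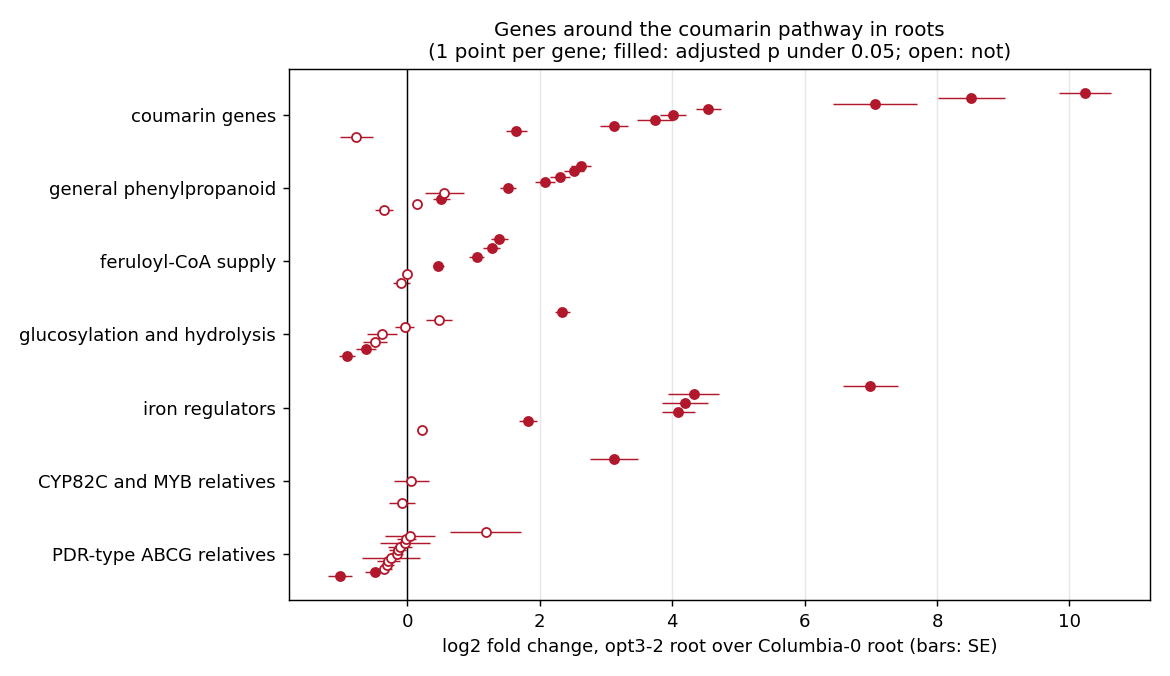
Log2 fold change of opt3-2 roots over Columbia-0 roots (SE bars) for every listed gene except CYP82C3, which had 3 reads in Columbia-0 roots; filled points passed an adjusted p under 0.05 in edgeR's quasi-likelihood test. The coumarin genes reach 10.24, the iron regulators 6.99, the general phenylpropanoid genes 2.62 and the feruloyl-CoA genes 1.39.

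Genes that add or remove sugars on coumarins went several ways in roots. Of 7, 1 rose and 2 fell, with a median of -0.38, against 8.28% and 7.28% of all genes tested in those directions. UGT72E1, a phenylpropanoid glucosyltransferase, averaged 440 ± 57.6 CPM in opt3-2 roots and 86.8 ± 10.1 CPM in Columbia-0 roots (2.34 ± 0.12, edgeR adjusted p = 1.36e-07). UGT71C1, a glucosyltransferase of phenolic compounds, averaged 167 ± 20.2 CPM in opt3-2 roots and 313 ± 27.8 CPM in Columbia-0 roots (-0.91 ± 0.12). BGLU23, an abundant root beta-glucosidase that can cleave scopolin, averaged 3316 ± 316 CPM in opt3-2 roots and 5110 ± 141 CPM in Columbia-0 roots. Its log2 fold change was -0.62 ± 0.15 (edgeR adjusted p = 0.0173). The call was lost without Columbia-0 replicate 1 (adjusted p = 0.0533) and with a covariate for the set of run numbers (0.116). BGLU21 and BGLU22, its close relatives, and UGT72E2 and UGT72E3 did not pass, so BGLU42 was the 1 beta-glucosidase of those examined that was called higher.

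Relatives of the transporter and the regulators were compared in the same way. Of 13 other ABCG transporters of the pleiotropic drug resistance type, 0 rose and 2 fell in opt3-2 roots (median -0.16), against the 3.13 of ABCG37. Shares of all genes tested were 8.28% higher and 7.28% lower. ABCG30 fell (-1.01 ± 0.19), and ABCG41 (-0.49 ± 0.14, edgeR adjusted p = 0.0375) lost its call when any 1 root library other than opt3-2 replicate 3 was left out (adjusted p from 0.0643 to 0.123). ABCG33, whose transcript is 80.0% identical to that of ABCG37 over 4095 bases, did not pass (-0.30 ± 0.10, adjusted p = 0.0757). MYB58 (-0.08 ± 0.19) and MYB63 (0.07 ± 0.26), near relatives of MYB72 and MYB10 known as lignin regulators, did not pass. CYP82C2, which is known for an indole defence compound, rose (3.13 ± 0.36) but averaged only 1.05 ± 0.172 CPM in opt3-2 roots and 0.117 ± 0.0499 CPM in Columbia-0 roots. CYP82C3 had 197 reads in opt3-2 roots and 3 in Columbia-0 roots, a ratio of 67.3 with a counting interval from 22.7 to 329, and was called higher. CYP82C4, which shares 91.5% of aligned bases with CYP82C2 and 90.5% with CYP82C3, had 107286 reads in opt3-2 roots and 92 in Columbia-0 roots. Whether some reads of CYP82C4 were counted for these relatives was not tested, so both rises in roots are uncertain.

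Of the 6 bHLH genes listed as iron regulators upstream of MYB72, 5 rose in opt3-2 roots and 0 fell (median 4.15). Shares of all genes tested were 8.28% higher and 7.28% lower. BHLH100 rose by 6.99 ± 0.42, BHLH38 by 4.32 ± 0.38, BHLH101 by 4.20 ± 0.35 and BHLH39 by 4.10 ± 0.25 on the log2 scale. FIT, their partner and a known activator of MYB72, averaged 277 ± 42.8 CPM in opt3-2 roots and 78.1 ± 10.2 CPM in Columbia-0 roots (1.83 ± 0.14, edgeR adjusted p = 3.71e-06). BHLH121 was at 0.22 ± 0.07 (adjusted p = 0.0530). Replicate 2 was the highest opt3-2 root replicate for all 6, as it was for MYB72, MYB10, COSY and BGLU42. Replicate 3 was the highest for the 4 other members that rose. The lowest was replicate 1 for 3 of the regulators and replicate 3 for 3, while replicate 1 was the lowest for all 8 members that rose. No share of all genes is given for this order.

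Markers of root cell types were compared beside these changes. Of the 5 root hair markers, RSL4 rose (1.42 ± 0.20) and the other 4 did not pass, and of the 4 endodermis markers 0 were called. Root hair markers summed to 96.1 to 160 CPM in opt3-2 roots and 148 to 162 CPM in Columbia-0 roots, with no marker at 0. Endodermis markers summed to 101 to 152 CPM in opt3-2 roots and 126 to 181 CPM in Columbia-0 roots, also with no marker at 0. Of the 9 leaf markers 0 were called in roots, and they summed to 215 to 426 CPM in opt3-2 roots and 192 to 312 CPM in Columbia-0 roots, against 64573 CPM or more in leaves. Root hair markers summed to at most 1.60 CPM in the leaf libraries, in opt3-2 replicate 3, which was also the highest for F6'H1 among them. Their part in that leaf value was not tested.

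Transcripts that went most closely with 2 of the members were sought over the 12 replicates, as Pearson's r of log2 CPM. Between members r ran from 0.815 to 0.991 for the 28 pairs without F6'H2 and from 0.505 to 0.872 for the 8 pairs with it. The genes most like F6'H1 were HMT-1, a homocysteine methyltransferase (r = 0.995), ERD2, a retention receptor of the endoplasmic reticulum (0.994), AT4G19370 (0.994) and AT1G77280 (0.994). The genes most like CYP82C4 were NAS1, a nicotianamine synthase (0.991), AT5G66490 (0.988), AT1G80360, also called VAS1, an aminotransferase that uses methionine (0.988), and MTK, a kinase of methionine salvage (0.986). NAS1 averaged 1141 CPM in opt3-2 roots, 57.1 CPM in Columbia-0 roots, 51.1 CPM in opt3-2 leaves and 50.1 CPM in Columbia-0 leaves. HMT-1 averaged 45.4, 13.8, 4.18 and 3.35 CPM in the same groups, higher in roots than in leaves of each genotype like F6'H1. These values of r mostly follow the differences between the 4 groups and are a description of 12 libraries.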

How the data were processed

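RNA from pools of plants was made into Illumina TruSeq libraries, per the labels' protocols. The submitters' processing notes name TopHat2, TAIR10 and edgeR, without versions. The sources used here do not give the counting program, annotation or use of strand. The deposited values are raw read counts per gene, made by the authors without normalization. Of 72 columns, 36 matched samples by name (the organ letter S, not R, was taken as leaf) and 36 were not used.

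The 3 runs of a replicate differed by little more than sampling noise (chi-square per degree of freedom 1.02 to 1.07, against 3.33 to 80.2 between replicates) and were summed, which gave 23981444 to 37685493 reads per replicate. Run numbers were read from column names, and what they stand for is not explained. All opt3-2 libraries had numbers 1 to 3, and Columbia-0 libraries had 2 to 4 or 5 to 7, so the genotypes shared no set. An effect of the set 1 to 3 and an effect of genotype therefore cannot be told apart. The run-set covariate set Columbia-0 root replicates 1 and 2 and Columbia-0 leaf replicate 3 (numbers 5 to 7) apart from all other libraries. No opt3-2 library was in that set, so the covariate was estimated from Columbia-0 libraries alone. It put numbers 1 to 3 and 2 to 4 together, so it does not adjust for a difference between those sets. The main test was edgeR 4.0.16 in R 4.3.3: TMM factors, the filterByExpr filter (21692 genes kept), a mean for each of the 4 groups, 8 residual degrees of freedom, the quasi-likelihood F test, Benjamini-Hochberg adjustment over all genes and a threshold of 0.05. The SE is the absolute log2 fold change over the square root of F and is approximate. Counting intervals are exact at 95% and, like floors of 3 reads, cover counting error only. Alternatives were upper-quartile factors, DESeq2 1.42.0, limma voom (3.58.1), no filter, a replicate block, a run-set covariate, the lowest-numbered run alone, the groups of an organ alone and each replicate left out. The fit was also run on simulated data, but no outcome is given here, so nothing is drawn from it. Same-numbered replicates of the genotypes deviated together in roots for replicates 1 and 3 (r = 0.466 and 0.460). For replicate 2 this was not clear (0.157), since opt3-2 root replicate 2 had 0.182 with Columbia-0 root replicate 1. In leaves they did not deviate together (-0.07, -0.04 and 0.01). Symbols and coordinates came from RefSeq TAIR10.1, where 28009 identifiers matched and 766 did not; transcripts were compared with BLAST 2.17.0. Named genes were the 9 members, OPT3, up to 4 called genes of each list with the lowest p in roots (else the 2 most abundant) and the 4 genes most correlated with F6'H1 and with CYP82C4 (mean log2 CPM of at least 1, prior count 2); others were named after their values were seen. Members and lists were chosen with earlier results of these data known.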

Additional observations from a re-analysis of the deposited data

Results flagged for a closer look

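The response of 8 coumarin genes to opt3-2 differed between the organs, by the test of the difference itself in edgeR (adjusted p from 1.73e-06 to 0.0331). In log2 units, the effect in roots minus that in leaves was 3.47 for F6'H1, 9.15 for S8H, 10.66 for CYP82C4, 1.15 for COSY, 3.96 for ABCG37, 3.67 for MYB10 and 4.43 for BGLU42. It was -3.45 for F6'H2, a value that depends on 1 read in Columbia-0 leaves. For this gene 10 of 19 alternatives did not call the difference (adjusted p up to 0.149). Among all genes tested, 7.69% were called positive and 8.45% negative. Outside the set, UGT72E1 (1.67, adjusted p = 4.56e-05) and FIT (0.76, adjusted p = 0.0375) rose in both organs and more in roots.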

How the results depend on the processing

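Over 655 values of the members under alternatives, 616 kept their direction and side of the threshold, 18 lost a call, 19 gained one and 2 changed sign, both uncalled in leaves: F6'H1 at -0.12 without opt3-2 replicate 3 (-0.12 to 0.49 with each leaf replicate left out) and CYP82C4 at 0.0391 with the run-set covariate. In roots 8 or 9 members were called throughout. With the replicate block F6'H2 joined them (9 called). The pairing that this block uses was clear in roots only for replicates 1 and 3. The count of all genes called in roots, 3377, was 1632 with the run-set covariate, 1973 with root groups alone and 2074 to 4231 with 1 replicate left out (3563 with the replicate block). For the difference between organs, 3503 genes became 2315 with the lowest-numbered run alone. Members called in leaves, 1 in the main test, numbered 0 with voom, the run-set covariate or the lowest-numbered run, 2 with the replicate block (F6'H2 and COSY, higher) or with leaf groups alone, and 0 to 1 with 1 replicate left out; leaf replicates share only a number. OPT3 in roots passed with the run-set covariate (-0.65, adjusted p = 0.0394). Among uncalled leaf markers in roots, RCA (0.00778) stood at -0.0102 with upper-quartile factors, -0.16 with the run-set covariate, -0.00101 with root groups alone and -0.0901 to 0.126 with 1 replicate left out, and LHCB1.3 at -0.35 to 0.73 with 1 replicate left out. Depth limits leaf values of F6'H2, MYB72, S8H and CYP82C4, at 0 to 42 reads per group. The causes were not tested.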

Other observations

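Leaves of opt3-2 showed changes in relatives of the coumarin genes, named here after their values were seen. CYP82C2 averaged 20.8 ± 2.57 CPM in opt3-2 leaves and 0.993 ± 0.374 CPM in Columbia-0 leaves (SD, n = 3; log2 fold change 4.35 ± 0.23, edgeR adjusted p = 6.05e-07). All mutant replicates, at 18.3 to 23.5 CPM, stood above those of the wild type, at 0.604 to 1.35 CPM, while CYP82C4, with 91.5% of aligned bases in common, stayed at 27 reads in opt3-2 leaves and 26 in Columbia-0 leaves. CYP82C3 had 16 reads in opt3-2 leaves and 0 in Columbia-0 leaves, at least 3.82-fold higher with 3 reads over the Columbia-0 group as the floor, and its call in leaves was lost in 6 of 13 alternatives, 5 of which left out 1 leaf replicate (adjusted p from 0.0521 to 0.0594).

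Among the 13 other ABCG transporters, 4 rose and 2 fell in opt3-2 leaves, against 15.4% and 12.6% of genes tested. ABCG40, known as an abscisic acid importer, averaged 77.3 ± 19.8 CPM in opt3-2 leaves and 10.8 ± 7.23 CPM in Columbia-0 leaves (2.83 ± 0.37, edgeR adjusted p = 2.45e-04); Columbia-0 replicate 3, at 19.1 CPM, was the highest of its group, and the value without it was 3.50. ABCG34, an exporter of the defence compound camalexin, averaged 57.0 ± 2.04 CPM in opt3-2 leaves and 25.1 ± 1.27 CPM in Columbia-0 leaves (1.18 ± 0.15). ABCG42 rose (0.89 ± 0.17), and ABCG33, the closest relative of ABCG37 by transcript, fell (-0.83 ± 0.12), as ABCG37 did in the main test. Of the glucosyltransferases, UGT72E1 (0.67 ± 0.11) and UGT72E2 (1.34 ± 0.32) rose in opt3-2 leaves, the second not with voom (adjusted p = 0.139). FIT averaged 4.37 ± 0.542 CPM in opt3-2 leaves and 2.08 ± 0.300 CPM in Columbia-0 leaves (1.06 ± 0.18).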
